A study of Mus musculus with 56 samples.

Results

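The genes described here tell T cell subsets apart or mark the naive, unstimulated state of a T cell. They were named as a list of 9 by symbol (Cd4, Cd8a, Cd8b1, Ccr7, Il7r, Tcf7, Lef1, Foxp3 and Satb1), of 30199 genes on the array, and no measured value entered the rule. All 9 were present on the array with 13 probes, and each had a probe past the filters described for the array, so that all 9 were among the 14584 genes tested. The samples were whole blood of C57BL/6 mice, 10 to 12 weeks old on arrival, collected by cardiac puncture at 4, 7, 9, 25 or 30 days after injection. Irradiated mice carried 200 kBq of strontium-90 (90Sr), a beta emitter that settles in bone, given once into the tail vein, and control mice received the vehicle. Each mouse gave 1 array, with 4 arrays a group at day 4 and 6 a group at the other days, 56 in all.

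Naive T cells leave the thymus as CD4 or CD8 cells and circulate between blood and lymph nodes. CCR7 is the chemokine receptor that leads them into lymph nodes, and the interleukin 7 receptor (Il7r) keeps resting cells alive. TCF1 (Tcf7) and LEF1 are the transcription factors that hold the naive and early memory programs, SATB1 organizes chromatin in thymocytes and T cells, and FOXP3 specifies regulatory T cells. CD8 sits on the surface as a pair of an alpha (Cd8a) and a beta chain (Cd8b1), whereas CD4 acts as a single chain. The lymphocytes of blood, T cells included, are known to be sensitive to ionizing radiation. In bulk blood, fewer cells of a type and less RNA per cell cannot be told apart.

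Probes of 60 bases read the genes, and the file of each array places them on mouse build mm9. The last 30 bases of the probes on which the subset results turn are shown, because probes of the CD4 and CD8 genes gave unlike answers. Capitals mark AATAAA, the canonical polyadenylation signal in the sense strand.
Cd4, used: acagaaaAATAAAggctataAATAAAatgc
Cd4, second probe: gcagtgtctactgagtgaaggtgataaggt
Cd8a, used: tctatctattgttactatcattttatacct
Cd8a, second probe: cgaaggctactatttctgctcagtcatcag
Cd8b1: ctctcgtggcttatatatttcttctctcac
Cd3e, a T cell receptor chain used as a reference: taatgcaaaaggcAATAAAgtgtattggct

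The used Cd4 probe lies at chr6:124814711-124814770 on the minus strand, and the second one at chr6:124817706-124817765. The used Cd8a probe lies at chr6:71328911-71328970 on the plus strand, the second one at chr6:71323885-71323944, and the Cd8b1 probe at chr6:71287231-71287290. The letters AATAAA, searched in the strand printed, occurred in the last 30 bases of 4174 of 39429 probes on the array (10.6%). Among the 12 probes used for the members and for the CD3 chains, 2 held it, those of Cd4 and Cd3e. The second Cd4 probe, printed in 10 spots, was above background on 17 of 56 arrays and well above it on 0, so the level of Cd4 rests on 1 probe. The other members were read at chr11:99005551-99005610 (Ccr7), chr15:9435976-9436035 (Il7r), chr11:52066114-52066173 (Tcf7), chr3:130926200-130926259 (Lef1), chrX:7172301-7172360 (Foxp3) and chr17:51879137-51879196 (Satb1). Whether a probe falls in a coding exon or an untranslated region was not analysed here.

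Values are log2 intensities with the median of each array at 0, so a difference of 1 is a 2-fold change at one probe, and levels of different probes are not compared. Before this step the array median differed by -0.66, -0.59, -0.94, -0.66 and -0.59 (irradiated minus control) from the earliest day to the latest. Changes are thus relative to the array median, and a rise smaller than this shift is not one of the uncentred intensity. Changes were tested day by day with limma over all genes, and "rose" or "fell" is written at a Benjamini-Hochberg adjusted p under 0.05. A gene is "called" at an unadjusted p under 0.001 with at least a 2-fold change, the threshold of the study's methods. Of 43020 spots, control spots left out, 17809 to 24698 (median 21049) were well above background on the array of a control mouse. On that of an irradiated mouse 14389 to 22524 (median 17863) were. A slide carried 4 arrays, and there were 14 slides. At day 4 all controls were on 1 slide and all irradiated mice on another, so slide and 90Sr cannot be told apart there. At each later day 1 slide held 2 arrays of each group, and values within those slides are given beside the results they touch. Nothing in the labels says how mice were allotted to slides, and the p-values measure the spread between these mice.

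Of the 9 genes 5, 7, 6, 6 and 5 fell from the earliest day to the latest. Over all genes tested 37.9%, 37.5%, 33.6%, 39.7% and 36.2% fell at the same days. Members that rose numbered 0, 1, 0, 1 and 3, beside 22.8%, 27.5%, 16.0%, 31.5% and 35.2% of all genes. The median change of the 9 was -0.99, -0.79, -0.77, -0.97 and -0.72 on the log2 scale, beside 0.04, 0.07, -0.17, 0.11 and 0.01 for all genes tested. Members called lower numbered 2, 0, 1, 3 and 1 at the 5 days, beside 23.1%, 16.1%, 17.9%, 26.5% and 21.3% of all genes. At day 30, 1 member was called higher, beside 19.7% of all genes. Cd8a and Tcf7 were called lower on the 4-day and 25-day arrays, and Ccr7 on those of days 9, 25 and 30. The gene called higher was Cd8b1.

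**Figure D1:**
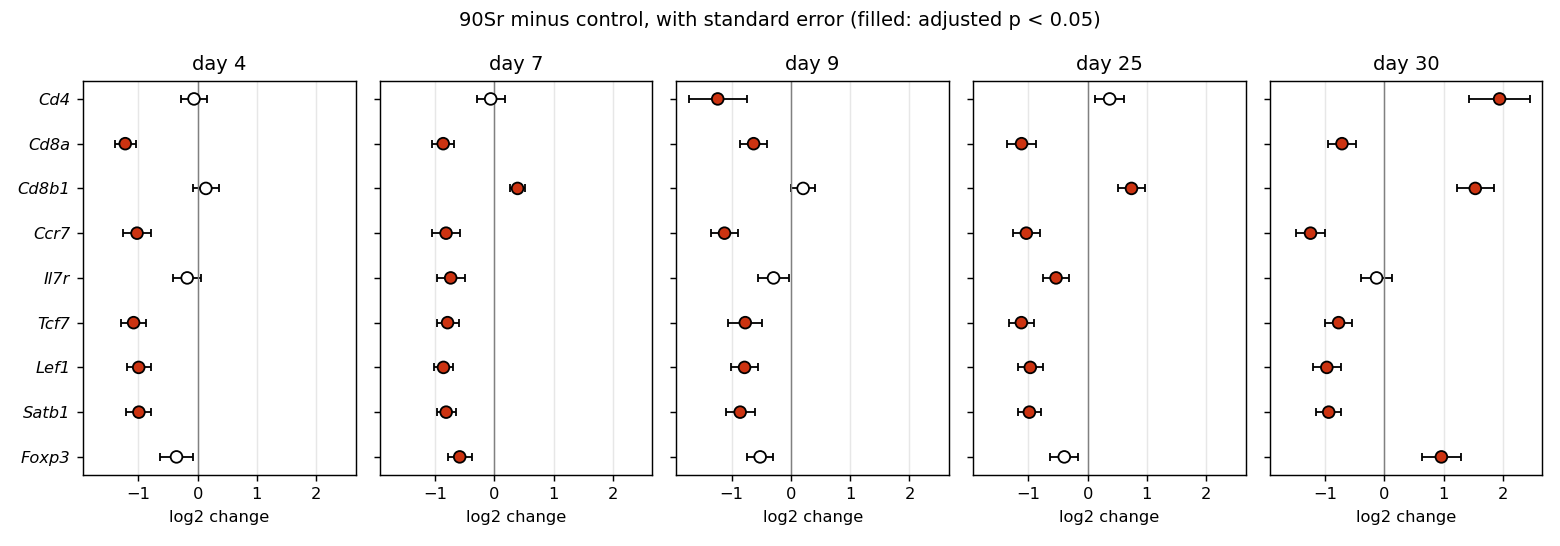
Log2 change of each of the 9 genes, irradiated minus control, at each day (x axis, log2 units), with the standard error as a bar and filled points at a limma adjusted p under 0.05. Ccr7, Tcf7, Lef1, Satb1 and Cd8a lie left of 0 at all 5 days, and Cd4, Cd8b1 and Foxp3 lie right of 0 at day 30.

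The counts depended on the scaling and on the slide. With the 75th percentile of each array at 0 in place of its median, the median change of all genes moved to 0.52, 0.41, 0.22, 0.60 and 0.20. The members that fell then numbered 5, 4, 1, 5 and 5, beside 28.4%, 29.3%, 22.8%, 30.9% and 32.5% of all genes. The share of lower among all genes that changed moved with the reference, from 62.5%, 57.7%, 67.8%, 55.8% and 50.7% to 38.6%, 40.6%, 45.0%, 39.2% and 45.7%. With the slide as a block, which rests on the 2 arrays of each group that shared a slide, the members that fell numbered 5, 1, 0 and 0 from day 7 on. The share of all genes that fell under this block is not given here. The day 9 count was 3 without control replicate 4, irradiated replicate 3 or irradiated replicate 5.

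The genes that fell at each of the 5 days are described first. They were the homing receptor Ccr7, the transcription factors Tcf7 and Lef1, the chromatin organizer Satb1 and, by its used probe, the CD8 alpha chain.

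Ccr7, a receptor that B cells and dendritic cells carry as well as naive T cells, read 7.64, 7.40, 8.01 and 7.32 in the 4 controls of day 4 and 6.98, 6.57, 6.72 and 6.00 in the irradiated mice. At day 9 the controls ran from 7.38 to 7.85 (median 7.62) and the irradiated mice from 5.95 to 7.20 (median 6.43). At day 30 the controls ran from 7.12 to 8.18 (median 7.72) and the irradiated mice from 5.89 to 6.94 (median 6.45). Every irradiated mouse was below every control of its day at these 3 days. At day 7 the groups overlapped, with controls from 7.56 to 8.15 (median 7.74) and irradiated mice from 6.50 to 7.72 (median 6.72). At day 25 they overlapped as well, with controls from 7.56 to 8.13 (median 7.89) and irradiated mice from 6.14 to 7.58 (median 6.77). In 25 of 28 irradiated mice Ccr7 was below all controls of the day. The change ran from -0.81 ± 0.23 (SE) at day 7 to -1.25 ± 0.24 at day 30, a 1.76-fold to 2.37-fold decrease, with limma adjusted p-values from 0.000379 to 0.00755. On the shared slides the difference was -1.28, -1.07, -0.47 and -1.30 at days 7, 9, 25 and 30. With the 75th percentile as the reference the day 7 change was -0.47 and did not pass (limma adjusted p = 0.0659).

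Lef1 was the member with the least overlap between groups. It read 6.54, 6.37, 6.83 and 6.04 in the controls of day 4 and 5.66, 5.54, 5.45 and 5.15 in the irradiated mice. At day 7 the controls ran from 6.56 to 6.87 (median 6.68) and the irradiated mice from 5.56 to 6.38 (median 5.71), and at day 9 from 5.88 to 6.14 (median 6.00) and from 4.68 to 5.85 (median 5.19). In all 28 irradiated mice the value was below every control of the day. At day 25 the ranges were 6.09 to 6.70 (median 6.45) and 4.93 to 5.90 (median 5.44), and at day 30 they were 6.08 to 6.84 (median 6.27) and 4.67 to 5.91 (median 5.38). The change lay between -0.78 ± 0.23 (SE) at day 9 and -0.99 ± 0.20 at day 4, a 1.72-fold to 1.99-fold decrease, with limma adjusted p-values from 0.000433 to 0.0112, so that no day reached the 2-fold limit for a call. A second Lef1 probe, whose span in the file (chr3:130907851-130926012) is longer than its 60 bases, changed by -0.83, -0.95, -0.59, -1.05 and -1.36. On the shared slides the difference was -1.04, -0.74, -0.49 and -1.17.

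Tcf7, which belongs to the same family of DNA-binding factors as Lef1, read 4.54, 4.31, 5.0 and 4.32 in the controls of day 4 and 3.68, 3.58, 3.58 and 3.0 in the irradiated mice. At day 25 the controls ran from 4.33 to 4.94 (median 4.77) and the irradiated mice from 3.12 to 4.15 (median 3.50). The groups did not overlap at either day, and they overlapped at days 7, 9 and 30. The ranges there were 4.35 to 4.68 (median 4.61) against 3.41 to 4.40 (median 3.61) at day 7, 3.72 to 4.48 (median 4.11) against 2.63 to 4.07 (median 3.40) at day 9, and 3.70 to 4.68 (median 4.2) against 3.05 to 3.81 (median 3.45) at day 30. The change ran from -0.77 ± 0.28 (SE) at day 9 to -1.12 ± 0.21 at day 25, or 1.71-fold to 2.17-fold lower, with limma adjusted p-values from 0.000427 to 0.0328. A second Tcf7 probe changed by -0.67, -0.99, -0.70, -1.33 and -0.75. The difference within the shared slides was -1.17, -1.05, -0.75 and -0.94. Without any 1 of 6 arrays (control replicate 4, 5 or 6, or irradiated replicate 1, 3 or 5) the day 9 decrease of Tcf7, at -0.62 to -0.75, did not pass.

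Satb1 read 5.13, 5.04, 5.52 and 4.66 in the controls of day 4 and 4.40, 4.15, 4.02 and 3.82 in the irradiated mice. At day 25 the controls ran from 4.88 to 5.45 (median 5.17) and the irradiated mice from 3.69 to 4.50 (median 4.24), and at day 30 from 4.18 to 5.06 (median 4.79) and from 3.58 to 4.15 (median 3.73). Of 28 irradiated mice, 27 were below all controls of the day, and the exception was at day 9. The ranges were 4.97 to 5.23 (median 5.11) against 3.82 to 4.80 (median 4.23) at day 7 and 4.55 to 5.16 (median 4.79) against 3.13 to 4.56 (median 3.96) at day 9. The change was nearly the same size at each day, from -0.81 ± 0.16 (SE) at day 7 to -0.99 ± 0.21 at day 4, or 1.76-fold to 1.99-fold lower, with limma adjusted p-values from 0.000546 to 0.00902. On the shared slides it was -1.07, -0.91, -0.69 and -1.04.

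Cd8a read 2.81, 2.64, 3.24 and 2.74 in the controls of day 4 and 1.67, 1.73, 1.75 and 1.41 in the irradiated mice, 2.33-fold lower. At day 25 the controls ran from 2.31 to 3.16 (median 2.79) and the irradiated mice from 0.91 to 2.34 (median 1.64). The groups were apart at day 4 and met at day 25, where 5 of 6 irradiated mice were below all controls. The ranges were 2.40 to 2.88 (median 2.72) against 1.30 to 2.43 (median 1.76) at day 7, 1.89 to 2.37 (median 2.22) against 0.97 to 2.10 (median 1.63) at day 9, and 1.90 to 2.63 (median 2.36) against 1.01 to 2.09 (median 1.57) at day 30. From the earliest day to the latest the change was -1.22 ± 0.18 (SE), -0.86 ± 0.19, -0.63 ± 0.23, -1.12 ± 0.24 and -0.72 ± 0.23, with limma adjusted p-values from 0.000389 to 0.0341. The probe was dim: it was well above background on 4 of 6 irradiated arrays at day 9, on 5 of 6 at day 30 and on all arrays of the other groups. The second Cd8a probe, left out of the tests because it varied too little between arrays, changed by -0.47, -0.35, -0.23, -0.71 and -0.08, less than the used probe at each day. Fitted over all detected probes, it passed at days 4 and 25 (limma adjusted p = 0.00987 and 0.0143). It did not pass at days 7, 9 and 30 (limma adjusted p = 0.105, 0.384 and 0.787), so the decrease at those days rests on the used probe. The difference of the used probe within the shared slides was -1.02, -0.76, -0.61 and -0.87. The day 9 change did not pass without any 1 of 7 of the 12 arrays (control replicate 1, 2, 4 or 5, or irradiated replicate 1, 3 or 5), and with the 75th percentile as the reference it was -0.24 (limma adjusted p = 0.329).

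For these 5 genes the effect was not shown to differ between days, limma's F test for a 90Sr effect that varied with the day giving adjusted p-values from 0.470 to 0.970. With the slide as a block, none of the 5 passed at day 25 or day 30, where the differences kept their sign, and only Ccr7 of them passed at day 9.

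**Figure D2:**
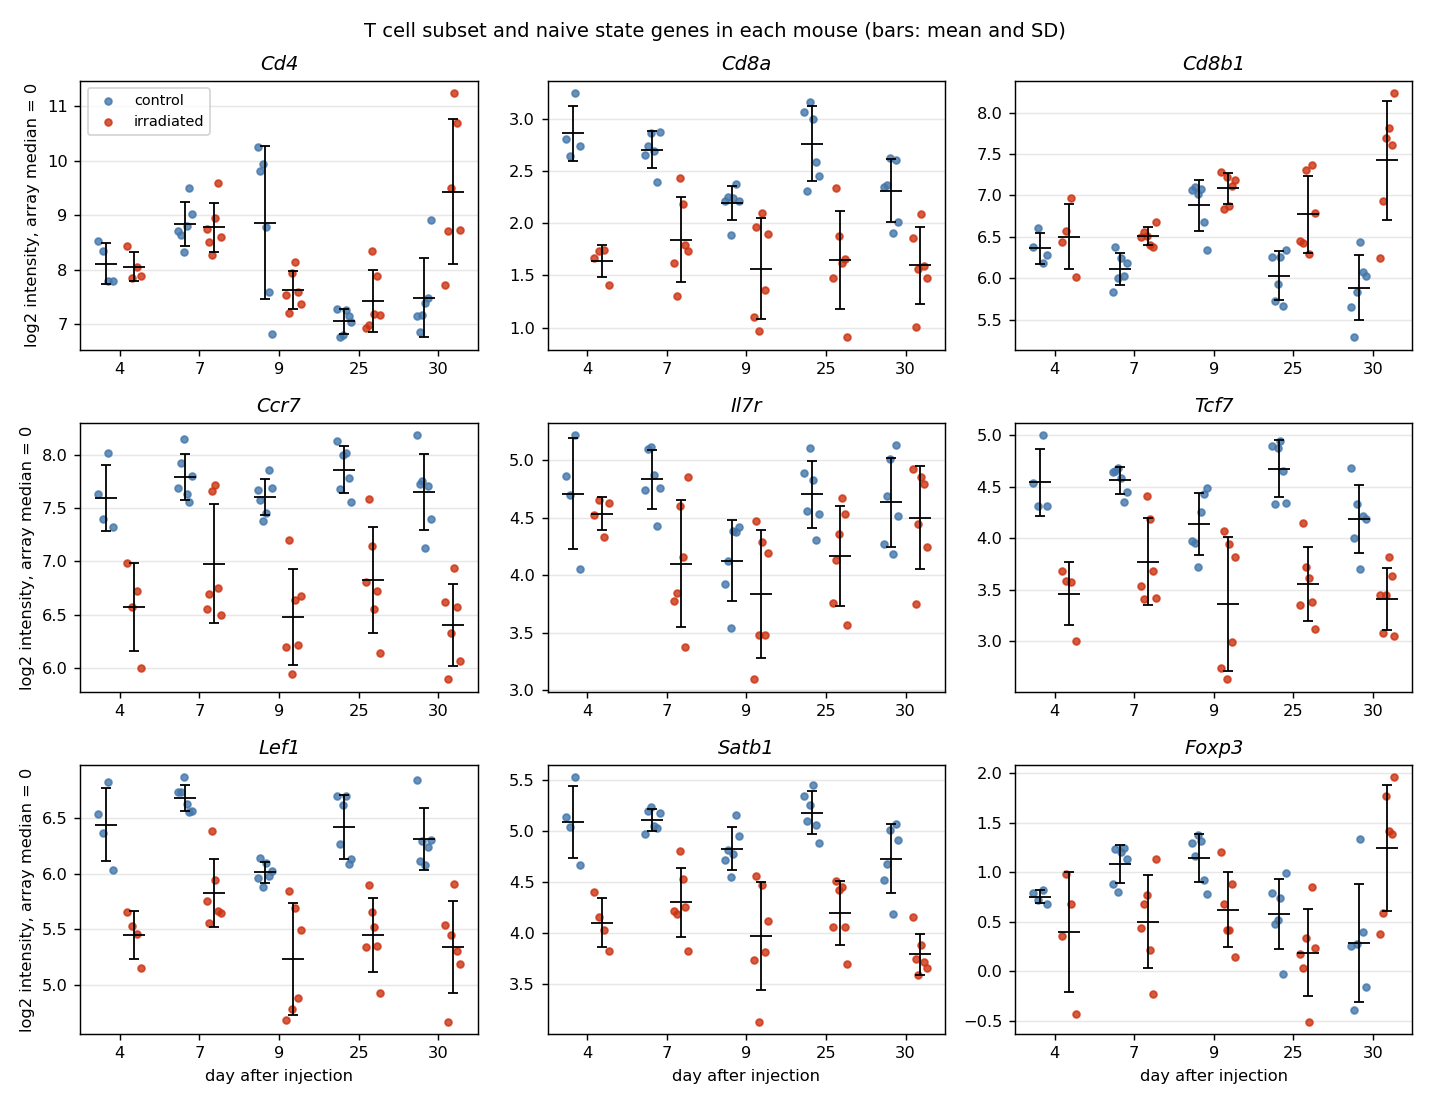
Log2 intensity of the 9 genes in each of the 56 mice (y axis, array median at 0) by day (x axis), with controls and irradiated mice side by side and bars for the mean and SD. The irradiated mice sit below all controls of their day for Lef1 in 28 of 28 cases, while the Cd4 values of the day 9 controls and the day 30 irradiated mice are widely spread.

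The receptor of interleukin 7 behaved less evenly. Il7r read 4.87, 4.70, 5.22 and 4.06 in the controls of day 4 and 4.52, 4.65, 4.33 and 4.63 in the irradiated mice, so that the groups overlapped. At day 7 the controls ran from 4.43 to 5.12 (median 4.82) and the irradiated mice from 3.38 to 4.85 (median 4.00), and at day 25 from 4.31 to 5.11 (median 4.69) and from 3.56 to 4.67 (median 4.25). Il7r fell at these latter 2 days, by 0.74 ± 0.24 (SE) with a limma adjusted p of 0.0141 and by 0.53 ± 0.23 with 0.0459. The ranges were 3.54 to 4.42 (median 4.25) against 3.09 to 4.47 (median 3.84) at day 9 and 4.18 to 5.14 (median 4.60) against 3.75 to 4.92 (median 4.62) at day 30. At the other days, 4, 9 and 30, the change was -0.18, -0.29 and -0.13, with limma adjusted p-values of 0.532, 0.389 and 0.657. Neither decrease passed with the 75th percentile as the reference (-0.39 and -0.05), under which the values of days 4, 9 and 30 changed sign. At day 7, where 4 irradiated arrays were scanned on another day than the controls, the change with the scan day as a block was -0.52 (limma adjusted p = 0.188). The day 25 decrease did not pass without any 1 of 8 of the 12 arrays.

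Cd4, Cd8b1 and Foxp3 followed another course, and for each of them the limma F test found an effect of 90Sr that differed between days (adjusted p = 0.00166, 0.00384 and 0.00373), beside 22.5% of all genes. With the slide as a random block these became 0.0878, 0.136 and 0.0938, and none of the 3 passed.

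Cd4, the co-receptor of helper T cells, read 8.53, 8.34, 7.79 and 7.80 in the controls of day 4 and 8.43, 7.86, 8.05 and 7.88 in the irradiated mice. At day 7 the ranges were 8.33 to 9.51 (median 8.76) and 8.28 to 9.59 (median 8.68), and at day 25 they were 6.77 to 7.28 (median 7.10) and 6.94 to 8.35 (median 7.18). The groups overlapped at these 3 days, and the changes of -0.06, -0.06 and 0.37 did not pass (limma adjusted p = 0.821, 0.829 and 0.188). The day 25 change depended on the scaling: it was 0.85 (limma adjusted p = 0.00320) with the 75th percentile as the reference and 0.48 (0.0251) after quantile normalization. With a single array as the reference it was 0.51 (0.0430), and on the shared slide it was -0.13.

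At day 9 the controls ran from 6.82 to 10.25 (median 9.30) and the irradiated mice from 7.21 to 8.14 (median 7.57). The irradiated mice lay within the range of the controls, and Cd4 fell by 1.24 ± 0.49 (SE), 2.36-fold, at a limma adjusted p of 0.0464. The control values split by slide: 4 arrays of 1 slide read 8.79 to 10.25, and the 2 on the slide shared with irradiated mice read 6.82 and 7.60. The 2 irradiated arrays of that shared slide read 7.21 and 7.54, so that the difference within it was 0.16. The decrease did not pass without any 1 of 9 of the 12 arrays, nor with the 75th percentile as the reference (-0.84, limma adjusted p = 0.162).

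At day 30 the controls ran from 6.85 to 8.91 (median 7.27) and the irradiated mice from 7.72 to 11.24 (median 9.12). Of 6 irradiated mice 3 were above all controls, and Cd4 rose by 1.95 ± 0.51 (SE), 3.85-fold, with a limma adjusted p of 0.00329. Again the values went with the slide. On the shared slide the controls read 7.48 and 8.91 and the irradiated mice 7.72 and 8.72, a difference of 0.02, whereas the 4 irradiated arrays of the other slide read 8.73 to 11.24 and the 4 controls of theirs 6.85 to 7.38. Those 4 irradiated arrays were also scanned on another day than the controls, and with the scan day as a block the change was 0.73 (limma adjusted p = 0.329). With the background modelled from the mean spot signal it was 1.32 (limma adjusted p = 0.0674).

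Cd8b1, the partner chain of Cd8a, did not move with it. It read 6.37, 6.61, 6.18 and 6.28 in the controls of day 4 and 6.44, 6.57, 6.97 and 6.02 in the irradiated mice, which overlapped. At day 7 the ranges were 5.83 to 6.38 (median 6.11) and 6.38 to 6.68 (median 6.50), and at day 9 they were 6.34 to 7.11 (median 7.04) and 6.84 to 7.28 (median 7.15). At day 25 they were 5.66 to 6.34 (median 6.09) and 6.29 to 7.37 (median 6.62), and at day 30 they were 5.29 to 6.44 (median 5.93) and 6.24 to 8.23 (median 7.65). At days 7, 25 and 30, 5 of 6 irradiated mice were above all controls. Cd8b1 rose by 0.39 ± 0.13 (SE), 0.74 ± 0.23 and 1.53 ± 0.31 at those days, 1.31-fold, 1.67-fold and 2.90-fold, with limma adjusted p-values of 0.0176, 0.0112 and 0.000540. The changes at days 4 and 9 were 0.14 and 0.21 (limma adjusted p = 0.579 and 0.427), and with the 75th percentile as the reference they were 0.62 and 0.60 and passed (limma adjusted p = 0.0255 and 0.0196). On the shared slides the difference was 0.48, 0.55, 0.44 and 0.54 at days 7, 9, 25 and 30, with both irradiated arrays above both controls each time, and none of these passed with the slide as a block. With the scan day as a block the day 30 change was 0.70 (limma adjusted p = 0.0997). When the background was modelled from the mean spot signal instead, the sign turned at days 4, 7 and 9 (-0.41, -0.03 and -0.55). The day 9 change then passed as a decrease (limma adjusted p = 0.0133), and the day 25 change was 0.19 (limma adjusted p = 0.397).

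Foxp3 was read near background. It was well above background on 3 of 4, 2 of 6, 1 of 6, 0 of 6 and 5 of 6 irradiated arrays from the earliest day to the latest, and on all control arrays but 1, at day 25. It read 0.79, 0.72, 0.82 and 0.68 in the controls of day 4 and 0.36, 0.99, 0.68 and -0.43 in the irradiated mice. At day 7 the ranges were 0.80 to 1.25 (median 1.17) and -0.22 to 1.14 (median 0.56), and at day 9 they were 0.78 to 1.38 (median 1.23) and 0.14 to 1.21 (median 0.55). The groups overlapped at each of these days. At day 25 the ranges were -0.03 to 1.0 (median 0.63) and -0.51 to 0.85 (median 0.21), but Foxp3 was not well above background on any irradiated array and no fold is given. At day 30 the ranges were -0.39 to 1.34 (median 0.27) and 0.37 to 1.96 (median 1.40). Foxp3 fell at day 7 by 0.58 ± 0.21 (SE) and rose at day 30 by 0.96 ± 0.33, with limma adjusted p-values of 0.0230 and 0.0152. At days 4 and 9 the change was -0.36 and -0.52 (limma adjusted p = 0.273 and 0.0607). On the shared slides the difference was -0.27 at day 7 and 0.37 at day 30, with the groups overlapping. Neither change passed with the scan day as a block (-0.30 and 0.20, limma adjusted p = 0.362 and 0.685), nor did the day 7 decrease with the 75th percentile as the reference (-0.24). The day 30 rise did not pass with the background modelled from the mean spot signal (0.21, limma adjusted p = 0.0594) nor in the authors' values (0.67, limma adjusted p = 0.0728).

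The controls differed between days for 5 of the 9 genes by limma's F test over the control groups, beside 48.2% of all genes. Cd4 had the widest span, from a control mean of 7.05 at day 25 to 8.87 at day 9 (adjusted p = 0.000482). Control means of Cd8b1 ran from 5.89 at day 30 to 6.88 at day 9 (adjusted p = 0.00143) and those of Foxp3 from 0.29 at day 30 to 1.14 at day 9 (adjusted p = 0.0177). Cd8a ran from 2.19 at day 9 to 2.86 at day 4 (adjusted p = 0.0234) and Lef1 from 6.01 at day 9 to 6.68 at day 7 (adjusted p = 0.0418). Since each day had slides of its own, day and slide cannot be told apart here, and with the slide as a random block 2 of the 9 passed. For Cd4 the neighbouring control means of 8.84 ± 0.40 (SD, n = 6) at day 7 and 8.87 ± 1.40 (SD, n = 6) at day 9 lay within their spread, as did 7.05 ± 0.22 (SD, n = 6) at day 25 and 7.49 ± 0.73 (SD, n = 6) at day 30.

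Differences between genes within a mouse are unchanged by a constant shift of an array's log2 values, but not by quantile normalization. Of such differences, 15 were tested (3 pairs of genes at 5 days) with a two-sided exact permutation test of the mean. The smallest p this design allows is 0.0286 at day 4 and 0.00216 later. The difference of Cd8b1 from Cd8a was higher in irradiated mice at all 5 days. Its mean was 3.50 ± 0.42 (SD, n = 4) in controls and 4.86 ± 0.26 (SD, n = 4) in irradiated mice at day 4, and 3.27 ± 0.37 (SD, n = 6) and 5.12 ± 0.68 (SD, n = 6) at day 25. The shift was 1.36, 1.26, 0.84, 1.86 and 2.25 on the log2 scale, with adjusted exact permutation p-values of 0.0476, 0.0108, 0.0476, 0.0108 and 0.0130. The groups were apart at days 4, 7 and 25 and overlapped at days 9 and 30. Within the shared slides the shift was 1.5, 1.31, 1.05 and 1.41 at days 7, 9, 25 and 30, without overlap. The day 9 shift did not pass without any 1 of 9 of the 12 arrays (adjusted exact permutation p up to 0.0747), and the day 4 shift did not without irradiated replicate 1 (0.0536). With the background modelled from the mean spot signal the day 9 shift was -0.04, and the day 4 shift of 0.43 did not pass. After quantile normalization the shifts at days 4 and 9 were 0.97 and 0.41 and did not pass (adjusted exact permutation p = 0.0612 and 0.322).

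Whether the used Cd4, Cd8a and Cd8b1 probes follow helper and cytotoxic T cells in these samples was not tested. Deviations from the group means correlated with those of the mean of the CD3 chains at -0.43 for Cd4, 0.44 for Cd8a and -0.32 for Cd8b1. Those of Cd8a and Cd8b1 correlated with each other at -0.08. The difference of Cd4 from Cd8a shifted by 1.16, 0.80, -0.61, 1.49 and 2.66. The adjusted exact permutation p-values were 0.0476, 0.0747, 0.404, 0.0108 and 0.0130, so that it was higher in irradiated mice at days 4, 25 and 30. At day 25 it was 4.29 ± 0.35 (SD, n = 6) in controls and 5.78 ± 0.69 (SD, n = 6) in irradiated mice, without overlap. The test takes no account of slides, and within the shared slides the shift was smaller at days 25 and 30 (0.48 and 0.89), 1.02 at day 7 and of the other sign at day 9 (0.92). The shift at day 4 was lost without irradiated replicate 1 (1.05) and after quantile normalization (0.68, adjusted exact permutation p = 0.143). That at day 7 passed without control replicate 5 (1.0) or irradiated replicate 3 (1.02). The difference of Foxp3 from Cd4 shifted by -0.30, -0.52, 0.72, -0.77 and -0.98. Only the day 25 shift passed (adjusted exact permutation p = 0.0325), and there Foxp3 was not well above background in the irradiated mice and the shift within the shared slide was -0.25, with the groups overlapping.

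**Figure D3:**
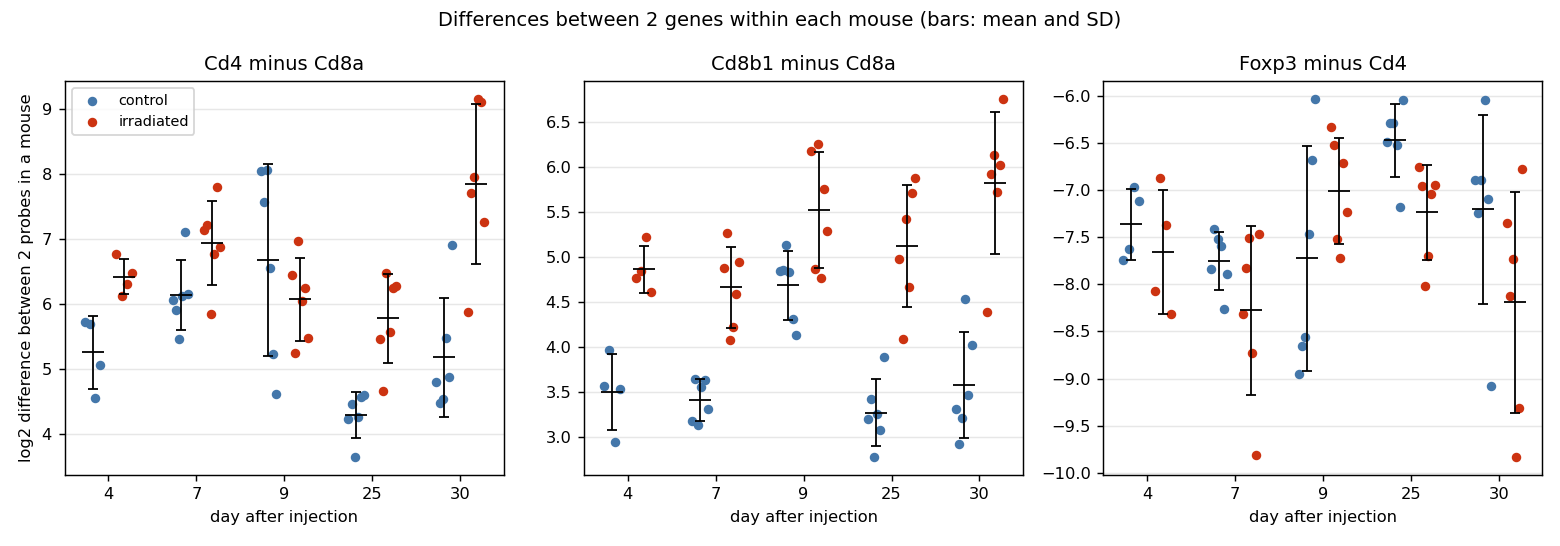
Log2 difference between 2 probes in each mouse (y axis) by day (x axis) for Cd4 minus Cd8a, Cd8b1 minus Cd8a and Foxp3 minus Cd4, with bars for the mean and SD. Cd8b1 minus Cd8a is higher in the irradiated mice at all 5 days, by 0.84 to 2.25, and the groups are apart at days 4, 7 and 25.

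The invariant chains of the T cell receptor complex, present on all T cells, served as a reference for whether a member moved by more or less than T cell transcripts at large. Of the 3 chains, Cd3d fell at all 5 days (-0.77, -0.68, -0.66, -0.89 and -1.07) and Cd3g at 4 of them (-0.91, -0.79, -0.82 and -1.52 at days 4, 7, 25 and 30, beside -0.48 at day 9). Cd3e did not follow: it changed by 0.45, 0.38, -0.10, -0.06 and -0.82, rising at day 7 and falling at day 30, and its control means ran from 6.82 at day 25 to 8.94 at day 30. Relative to the mean of the 3 chains in the same mouse, 5, 3, 1, 2 and 0 members were lower at the 5 days, beside 29.7%, 24.6%, 21.6%, 23.4% and 2.42% of all genes. Members higher numbered 1, 1, 1, 2 and 4, beside 42.9%, 38.7%, 26.6%, 46.4% and 53.4%. With Cd3d and Cd3g alone as the reference, an alternative added after seeing the data, none was lower at days 4, 7 and 25, so those counts rest on Cd3e.

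Relative to CD3 the median change of all genes tested was 0.46, 0.43, 0.24, 0.70 and 1.15 at the 5 days. Cd8b1 was higher relative to CD3 at all 5 days, by 0.55, 0.76, 0.62, 1.33 and 2.67, with limma adjusted p-values from 8.78e-05 to 0.0475. The day 4 value did not pass without any 1 of 6 of the 8 arrays, nor the day 9 value without any 1 of 8 of the 12. Cd4 was higher by 0.96 at day 25 (limma adjusted p = 0.0172) and by 3.08 at day 30 (0.000327), and Foxp3 by 2.10 at day 30 (0.000641). With the slide as a block none of the values of days 25 and 30 passed. That of Cd4 was -0.04 at day 25 and 0.65 at day 30 (limma adjusted p = 0.961 and 0.643), that of Cd8b1 0.52 and 1.17 (0.568 and 0.321), and that of Foxp3 1.0 at day 30 (0.400). At day 30 all 3 CD3 chains had fallen in the irradiated mice, and Cd3g read 1.20 in 1 of them. Il7r was at 1.0 on that day, below the median of 1.15 over all genes. It did not pass without that array (irradiated replicate 5, 0.70) or without any 1 of 5 others.

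The 9 genes also differed in how they varied between mice of one group. The deviations from the 10 group means were correlated over the 56 arrays, which share scaling and slides, as a description with no test. Cd8a, Ccr7, Il7r, Tcf7, Lef1 and Satb1 varied together, with Pearson r from 0.51 to 0.88 (median 0.77) over their 15 pairs. Cd4, Cd8b1 and Foxp3 formed the other set, with r of 0.20, 0.52 and 0.78 over 3 pairs, and across the sets the 18 pairs gave -0.27 to 0.07. These sets were drawn after the values were seen. The correlation with the CD3 mean was 0.33 to 0.46 for the genes of the first set and -0.43, -0.32 and -0.21 for Cd4, Cd8b1 and Foxp3.

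**Figure D4:**
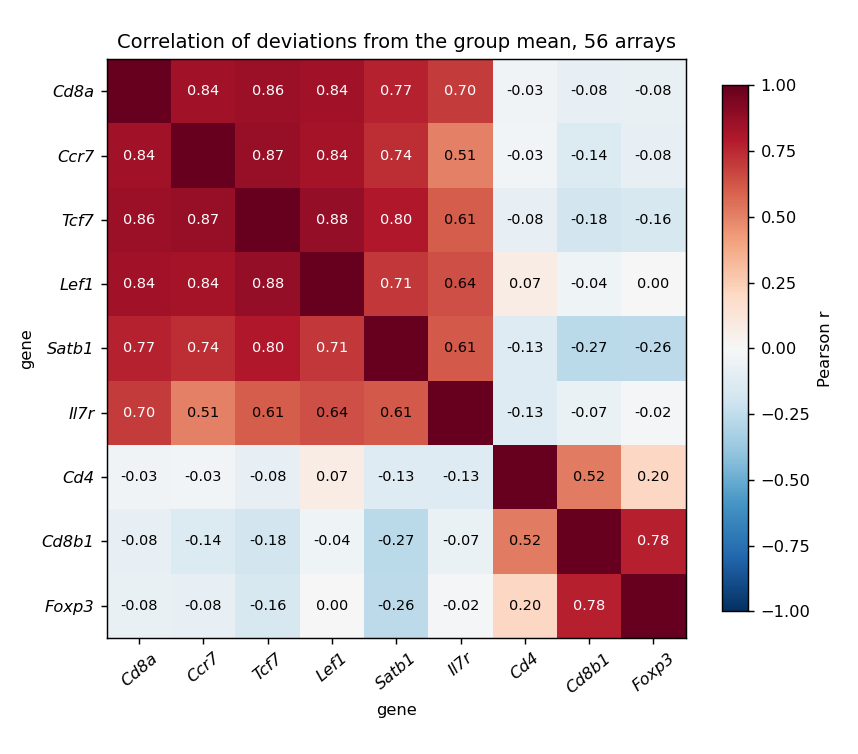
Pearson correlation over 56 arrays of the deviations from the group mean for each pair of the 9 genes (both axes list the genes, the colour gives r). Cd8a, Ccr7, Il7r, Tcf7, Lef1 and Satb1 form a block with r of 0.51 to 0.88, and Cd4, Cd8b1 and Foxp3 lie outside it.

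The same measure over 18568 detected genes named the closest non-members. Satb1 and Tcf7 were closest to Ets1, a lymphocyte transcription factor (r = 0.92 and 0.87), followed by Cd96, a receptor of T and natural killer cells (0.89), and 2610019F03Rik (0.86). Cd8a and Lef1 were closest to Vipr1, the receptor of vasoactive intestinal peptide (0.86 and 0.85), followed by Trib2 (0.86) and Acp5 (0.84). Ccr7 was closest to probe A_55_P1953377, which had no gene symbol (0.88), and to the activation marker Cd69 (0.87), and Il7r to Itm2a (0.81) and Atp1b3 (0.74). Cd4 was closest to Sall4, a transcription factor of stem and germ cells (0.94), and Nipa2, a magnesium transporter (0.93). Cd8b1 was closest to Olfr700, an olfactory receptor (0.95), and Spef1, a sperm flagellar protein (0.90), and Foxp3 to the transcript BG067755 (0.79) and probe A_55_P2000444 (0.76).

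Other genes of the same pathways were followed in lists, tested over all 18802 detected genes, where 33.6%, 33.6%, 27.3%, 38.2% and 29.7% of genes fell and 20.3%, 24.1%, 15.2%, 25.8% and 34.4% rose at the 5 days. In that fit 5, 7, 5, 6 and 5 of the 9 members fell and 0, 1, 0, 1 and 3 rose. Of 12 further genes of the naive state and of homing, 8, 8, 8, 10 and 8 fell, with a median change of -1.25, -0.99, -0.99, -1.29 and -1.07. The exception in direction was Cd27, a co-stimulatory receptor, which rose at day 30 (1.51). Bach2, a repressor that holds lymphocytes in a resting state, fell by 1.52 to 2.28, Foxo1, which drives Il7r and Klf2, by 1.37 to 2.01, and S1pr1, the receptor for leaving lymph nodes, by 1.33 to 2.25. Foxp1, a factor of T cell quiescence, fell by 1.23 to 2.22. Bach2, Foxo1 and Foxp1 are known in B cells as well.

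Of 9 detected genes of interleukin 7 signaling 6, 6, 5, 6 and 3 fell, among them the shared receptor chain Il2rg (-0.92 to -1.38), its kinase Jak3 (-0.72 to -1.07) and the factor Stat5a (-1.09 to -1.49) at all 5 days, and Crlf2 at 4, while Cish, an inhibitor of cytokine signaling, rose at day 4 (0.47). Of 8 detected partners of TCF and LEF factors 3, 3, 2, 3 and 4 fell and 0, 2, 0, 3 and 1 rose. Beta-catenin (Ctnnb1, -0.83 to -1.05) and the co-repressor Tle3 (-0.88 to -1.40) fell at all 5 days and Bcl9 at 4, whereas Aes, a short Groucho-related protein, rose at days 7 and 25 (0.63 and 0.43). Of 21 T cell receptor and signaling genes 12, 14, 7, 14 and 13 fell, including the adhesion molecule Cd2 (-1.21 to -2.02) and Cd6 (-0.65 to -1.12) at all 5 days and Bcl11b, a T lineage factor, at 4. Of the same list Cd3e rose at day 7 and Cd247, the zeta chain of the receptor, at day 30 (0.82).

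Of 7 detected genes of regulatory T cells other than Foxp3, 2, 2, 2, 1 and 2 fell and 0, 1, 1, 2 and 4 rose. Tnfrsf18, the receptor GITR, fell at all 5 days (-0.58 to -1.02) and Il2ra, the high-affinity interleukin 2 receptor chain, at days 4, 7 and 9. Il10 rose at days 25 and 30 (1.14 and 1.90) and Ikzf4 at days 9 and 30 (0.89 and 1.79). Ctla4, Nrp1 and Gpr83 were not above background on enough arrays to be counted. Of 19 effector and memory genes 2, 7, 4, 7 and 5 fell, among them Tbx21, the factor T-bet, Cxcr3 and Prdm1, and Eomes rose at day 7 (0.33).

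**Figure D5:**
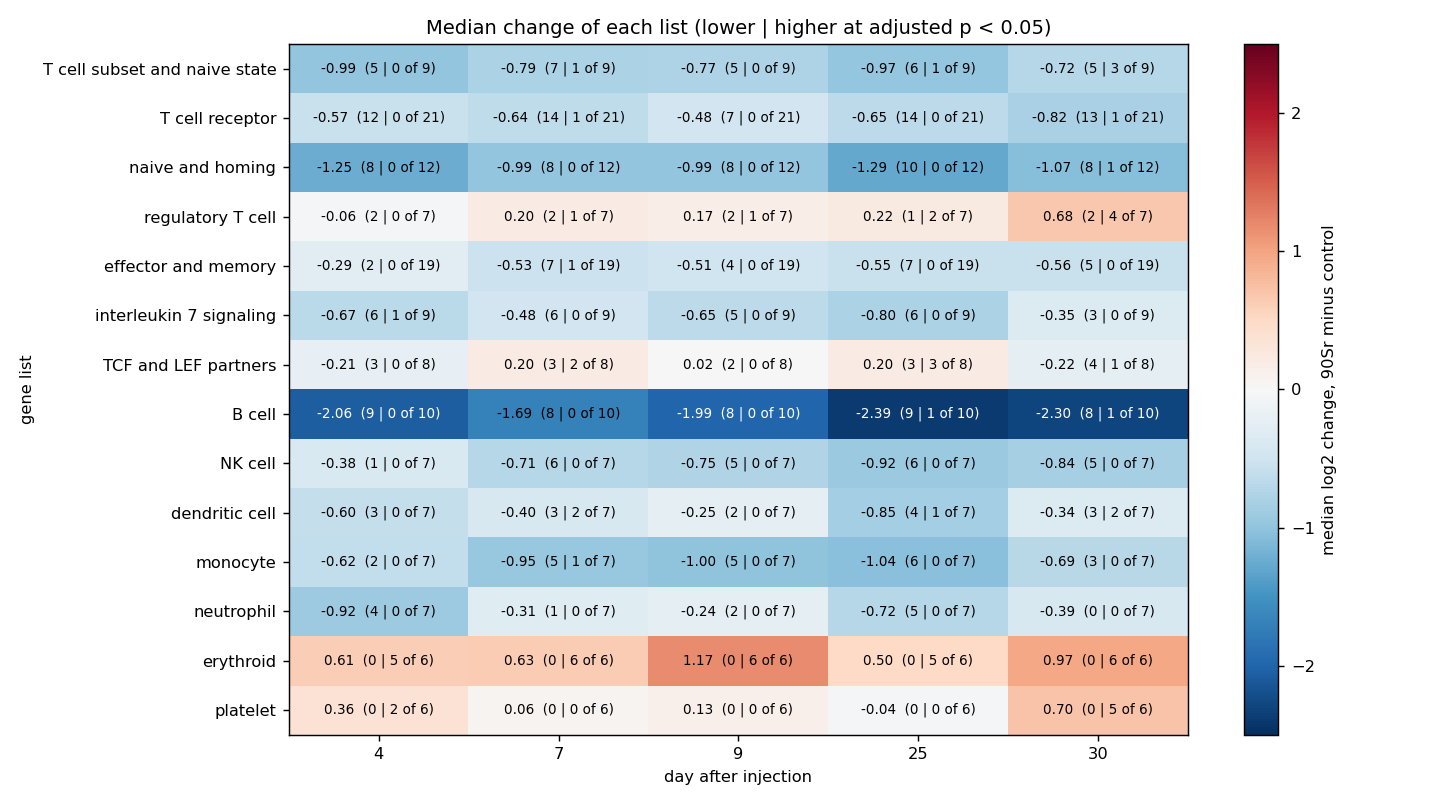
Median log2 change, irradiated minus control, of the genes of each list (rows) at each day (columns), with the number of genes lower and higher at a limma adjusted p under 0.05 in each cell. The B cell list has the lowest medians, -1.69 to -2.39, and the naive and homing list the lowest of the T cell lists, -0.99 to -1.29.

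Markers of other blood cells moved with 90Sr too, and their part in the results on the 9 genes was not tested. Of 10 B cell genes 9, 8, 8, 9 and 8 fell, Ebf1, Cd79b, Ms4a1 and Fcer2a by 1.71 to 3.20, while Pax5, the B lineage factor, rose at days 25 and 30 (0.64 and 1.13). The mean level of that list was 5.46 to 5.76 in the controls and 3.36 to 4.11 in the irradiated mice of day 4, and 4.97 to 5.77 and 3.42 to 3.88 at day 30. Of 7 natural killer cell genes 1, 6, 5, 6 and 5 fell, with Ncr1 lower at all 5 days (-0.49 to -0.92) and Klrd1, Klrk1 and Klra7 at 4. Of 7 monocyte genes 2, 5, 5, 6 and 3 fell, led by the chemokine receptors Ccr2 (-2.21 to -2.84) and Cx3cr1 (-1.88 to -2.69), and Csf1r rose at day 7 (0.55). Of 7 detected dendritic cell genes 3, 3, 2, 4 and 3 fell, led by Irf8 (-1.62 to -1.99), while Zbtb46 rose at days 7, 25 and 30, Clec9a at day 7 and Siglech at day 30. Of 7 neutrophil genes 4, 1, 2, 5 and 0 fell, Ly6g at 4 of the days. Of 6 erythroid genes 5, 6, 6, 5 and 6 rose, with Slc4a1 and Tfrc higher at all 5 days (0.48 to 1.44). The mean level of the erythroid list ran from 7.40 to 7.70 in controls and from 8.10 to 8.32 in irradiated mice at day 4, without overlap. Of 6 platelet genes 2, 0, 0, 0 and 5 rose, among them Pf4 and Gp9 at days 4 and 30.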

How the data were processed

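Blood RNA stabilized in PAXgene tubes was depleted of globin transcripts, labelled with Cy3 and hybridized, 1 mouse an array, to Agilent 4x44K mouse arrays. The authors deposited scanner output read with Feature Extraction (10.7 in the submitters' processing notes, 11.5.1.1 in the file headers). The background-corrected intensity of each spot in those deposited files was used. The authors' own deposited log2 values, with a median normalization whose details are not given in the sources used here, served as an alternative.

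Control spots were left out, leaving 43020 of 44397 spots, and spots of 1 probe were averaged. Signals were put on the log2 scale with the median of each array subtracted. A probe was left out as undetected if it was not above background, or was flagged as non-uniform, on 25% or more of arrays. To enter the tests, at least 20% of arrays also had to differ 1.5-fold or more from its median. The probe of highest mean stood for a gene. Groups came from sample titles. Each day was tested with limma 3.58.1 (R 4.3.3, statmod 1.5.0 for random blocks), with Benjamini-Hochberg adjustment over all genes tested. The steps were tested on simulated data of independent arrays, without an effect of slide or scan day. Such effects were thus not covered. Array number, with 4 or 6 mice a group, limits the precision.

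The members and the gene lists were chosen with earlier results of these data known. Named in the text were all members, the CD3 chains, at most 4 genes of each list with the largest mean change over the days among genes that passed at any day, and the 2 closest non-members of each member, apart from some list genes that are not reported here. List genes that rose where most of their list fell were named after their values were seen. Of the 13 member probes, 12 had accessions in the RefSeq table with the same symbol. Alternatives were other scalings, backgrounds, filters, probe rules, blocks, reference genes and the omission of each array. Scaling and background alternatives, and the authors' values, kept the probes of the main setting, a choice made after seeing the data. Probe positions within genes were not analysed here.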

Additional observations from a re-analysis of the deposited data

Results flagged for a closer look

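Of the values examined, 7 stood apart from the rest of their group by Dixon's test, over 120 groups of 4 or 6 mice for the 9 genes and the 3 CD3 chains. Chance alone marks about 1 in 20 groups. At day 7, irradiated replicate 3 was above the others of its group for Cd3d (6.70) and Cd3g (5.63). At day 30, irradiated replicate 5 was low for Cd3g (1.20), control replicate 6 was high for Cd4 (8.91) and control replicate 1 was high for Lef1 (6.84). Cd8a was low in control replicate 3 of day 9 (1.89), and Tcf7 in irradiated replicate 4 of day 4 (3.0).

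Cd4, Cd8b1 and Foxp3 changed unlike at different days, with limma F tests giving adjusted p-values of 0.00166, 0.00384 and 0.00373. When slides entered as a random block these were 0.0878, 0.136 and 0.0938.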

How the results depend on the processing

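The decreases of Ccr7, Tcf7, Lef1, Satb1 and Cd8a kept their sign at every day under all scaling, filter, probe and block alternatives run, apart from the 1 unusable background model described last, while their passing of the threshold did not always hold. For the authors' values this covers only those of these genes whose probes were held. The cause of a changed count or sign was not tested. The share of all genes called, or falling under a block, is not given for the alternatives. Changed counts of members are therefore not read as particular to them. A probe near background (Foxp3, Cd8a) and 4 to 6 arrays a group limit what these data resolve, and a block of slide rests on 2 arrays a group.

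With the 75th percentile of each array as the reference, the members that fell numbered 4 at day 7 and 1 at day 9, beside 29.3% and 22.8% of all genes. Those called lower were 0 at days 4, 9 and 25. Signs turned for Cd4 at days 4 and 7 (0.42 and 0.29), Il7r at days 4, 9 and 30 (0.30, 0.10 and 0.056) and Foxp3 at days 4 and 25 (0.12 and 0.089), and 3 of the 9 differed between control days. The median of a list turned at day 4 for regulatory T cell, effector and memory, TCF and LEF partner and natural killer genes (0.42, 0.19, 0.27 and 0.10), for neutrophil genes at days 7 and 9 (0.041 and 0.15), for dendritic cell genes at day 9 (0.15) and for platelet genes at day 25 (0.44). Genes of these lists that fell numbered 33, 37 and 30 at days 4, 7 and 25, and those that rose 33, 34, 21 and 31 at days 4, 7, 9 and 25. Under quantile normalization Il7r turned at days 4 and 9 (0.16 and 0.0014), members called lower were 0 at days 4 and 25 and 2 at day 30, and 2 differed between control days. The differences Cd4 minus Cd8a and Cd8b1 minus Cd8a at day 4 (0.68 and 0.97) and Cd8b1 minus Cd8a at day 9 (0.41) no longer passed. List medians turned for regulatory T cell and effector genes at day 4 (0.35 and 0.064), TCF and LEF partners at days 9 and 25 (-0.029 and -0.10) and platelet genes at days 7 and 9 (-0.15 and -0.22), and the platelet genes median at day 30 turned as well (-0.025), with 14 list genes higher at day 4 and 47 lower at day 25. With a single array as the reference Cd4 at day 4 was 0.0091, and members called lower were 0 at day 25 and 3 at day 30.

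The mean of a gene's probes gave 1 member called lower at day 4 and 2 at day 30. The authors' values held the probes of 7 of the 9 members. They gave 3 members lower at days 4 and 30, beside 40.6% and 43.1% of all genes. Some of Ccr7, Tcf7, Lef1, Satb1 and Cd8a were not held, and those held passed at both days. With these values 1 member was called lower at day 25 and 3 were called lower on the last day. Under a block of slides 1, 0 and 0 members fell and 0 were called lower at days 9, 25 and 30. Cd4 turned at days 9 and 25 (0.16 and -0.13) and Foxp3 at day 9 (0.093). Relative to CD3 none was lower at days 7, 9 and 25, Cd4 at day 25 was -0.044, and none of the members higher at days 25 and 30 passed. With the slide as a random block 1 member was called lower at day 25, 0 differed in their effect between days and 2 between control days. The scan day as a block gave 3 called lower at day 7. With Cd3d and Cd3g only as the reference, added after seeing the data, none was lower at days 4, 7 and 25.

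The correlations of same-numbered control and irradiated mice ran from -0.28 to 0.34 over the days. Of the pairs 4 of 4, 2 of 6, 0 of 6, 0 of 6 and 2 of 6 correlated best with their own number from the earliest day to the latest, and at day 4 the correlations were 0.075 to 0.31. At no day was every correlation above 0.1, and the numbers were not read as pairs. A replicate block left 1 member called lower at day 25 and 0 lower relative to CD3 there, and its other counts of members lower, called or relative to CD3 lower stayed within 1.5 times.

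Leaving out each array in turn gave 1 to 4, 1 to 2, 1 to 5 and 1 to 3 members called lower at days 4, 9, 25 and 30, and 3 to 6 lower at day 9. Relative to CD3 there were 3 to 5, 1 to 5, 1 to 2 and 0 to 4 lower at days 4, 7, 9 and 25, and 3 to 6 differed between control days. Cd4 minus Cd8a ran from 0.93 to 1.32 at day 4 and from 0.63 to 1.02 at day 7, and Cd8b1 minus Cd8a from 1.17 to 1.52 at day 4 and from 0.69 to 0.99 at day 9. Changes near 0 crossed it: Cd4 ran from -0.19 to 0.079 at day 4 and from -0.22 to 0.073 at day 7, Cd8b1 from -0.017 to 0.30 at day 4 and Il7r from -0.22 to 0.020 at day 30.

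The planned normexp background with local background could not be fitted soundly: on 21 of 56 arrays the corrected median exceeded the uncorrected one plus the offset of 50, so its values, with 0, 2, 0, 0 and 0 members lower, were set aside. It was replaced, after seeing the data, by normexp without local background. There Cd8b1 turned at days 4, 7 and 9 (-0.41, -0.033 and -0.55), passing as a decrease at day 9, and Cd4 turned at day 25 (-0.15). Under it 4, 3, 4 and 3 members were called lower at days 4, 7, 9 and 30. Of all genes tested 40.4%, 39.9%, 45.6% and 39.4% fell there at those days, and the share called is not given. Relative to CD3, 2 were lower at day 9 and 1 at day 25, and Cd8a turned at days 7 and 25 (0.12 and 0.23). Cd4 minus Cd8a no longer passed at days 4 and 30 (0.42 and 1.84) nor Cd8b1 minus Cd8a at day 4 (0.43). Cd8b1 minus Cd8a turned at day 9 (-0.039), as did Foxp3 minus Cd4 at days 4, 7 and 25 (0.26, 0.22 and 0.027).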
